A study of Mus musculus with 4 samples.

Results

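The genes described here are 10 genes of the hexosamine pathway and of the enzymes and receptor that use its product. They are Gfpt1, Gfpt2, Gnpnat1, Pgm3 and Uap1, which make the sugar donor UDP-GlcNAc, Ogt, which moves GlcNAc onto proteins, the hyaluronan synthase genes Has1, Has2 and Has3, and the hyaluronan receptor gene Cd44. They were listed by their place in the pathway, with earlier results of these data known, out of 30142 genes with a row of their own on the array. All 10 had 1 such row. RNA came from primary keratinocytes of C57BL/6J mice at 1 week of age, cultured in keratinocyte medium with 0.05 mM CaCl2, and was hybridised to 4 single-channel Affymetrix MTA-1_0 arrays. Each genotype had 2 arrays: wild type, and Glut1-deficient, in which the glucose transporter Glut1 (gene Slc2a1) was missing specifically in keratinocytes. Cells of 4 mice per genotype were grown for 3 days, reseeded at 2000000 cells and harvested the next day, and plates of 2 mice of a genotype were combined at random for each array. The driver of the deletion and the deleted part of Slc2a1 are not stated in the labels used here. All levels below are log2 signals (deposited SST-RMA values) given with n = 2 arrays per genotype, and all differences are Glut1-deficient minus wild type. P-values reflect only the spread between these pooled samples, which may in part be technical, and precision is limited by the number of arrays.

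The hexosamine pathway takes fructose 6-phosphate from glycolysis and an amino group from glutamine. The enzymes encoded by Gfpt1 or Gfpt2 make glucosamine 6-phosphate, which is acetylated by Gnpnat1, isomerised by Pgm3 and joined to UTP by Uap1. The product, UDP-GlcNAc, is used for N-linked and other glycans, for the attachment of single GlcNAc units to nuclear and cytoplasmic proteins by Ogt, and, with UDP-glucuronate, for hyaluronan. Hyaluronan is a long unbranched sugar polymer extruded between epidermal cells by the Has enzymes, and keratinocytes bind it mainly through CD44.

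Slc2a1 itself read 13.26 and 13.40 in wild-type cells and 12.09 and 12.01 in Glut1-deficient cells. This difference of -1.28 (SE 0.10, limma adjusted p = 0.00754) checks the labels. Of 9 keratinocyte markers, 8 lay above the background floor on all 4 arrays, among them Krt5, Krt14 and Perp, and none of the 9 passed the test. The floor is the 95th percentile of 23 background control rows, 4.36 to 4.87 by array. All 6 measured leukocyte markers and all 3 adipocyte markers lay at or below it on every array. Of 7 fibroblast markers, Dcn alone passed, at 4.08 and 3.82 in wild-type cells and 5.28 and 5.97 in Glut1-deficient cells, while Col1a1, Pdgfrb and Thy1 differed by 0.22, 0.42 and 0.37. Of 5 endothelial markers Kdr passed (difference 3.60), Pecam1 differed by -0.32 and did not pass, and Cdh5, Tek and Emcn were at or below the floor throughout. The summed signal of 7 melanocyte markers was 10.55 and 10.05 (log2) in wild-type cells and 12.38 and 11.14 in Glut1-deficient cells, highest in Glut1-deficient replicate 1. Of the 7, Pmel passed the test, Tyrp1 and Dct, the brightest, differed by 1.49 and 1.84 and did not pass, and Sox10 lay near the floor on all arrays. In such bulk samples a change in the share of a cell type and a change in RNA per cell cannot be told apart.

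Transcripts of Gfpt1, Gnpnat1 and Ogt were higher in cells lacking Glut1, by 1.59-fold, 1.89-fold and 1.77-fold. Those of Has2 and Cd44 were lower, by 1.80-fold and 1.46-fold. The other 5 genes, Gfpt2, Pgm3, Uap1, Has1 and Has3, did not pass the threshold, a Benjamini-Hochberg adjusted p under 0.05 over 30604 rows. Thus 5 of 10 (50%) passed, beside 7.22% of all rows tested, with 3 higher (background 4.11%) and 2 lower (background 3.11%). Many of all rows lay at background. When only rows above the floor in at least 2 arrays were tested, 5 of 9 members passed, beside 3032 of 15638 rows. The median difference of the 10 was -0.18, beside -0.01 over all rows. The groups did not overlap in 9 of the 10 genes, where 49.7% of all rows did not overlap. When 1 array was left out, none of the 10 passed without either of the wild-type arrays or without Glut1-deficient replicate 1. Without Glut1-deficient replicate 2, Gnpnat1 and Has2 passed. None passed when control rows and rows without a single gene symbol were added to the test. The unadjusted limma p was under 0.05 for 7 of the 10 with all arrays, beside 6720 of 30604 rows. With the added rows in the test it was under 0.05 for 7 of the 10, beside 5420 of the same 30604 rows.

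**Figure D1:**
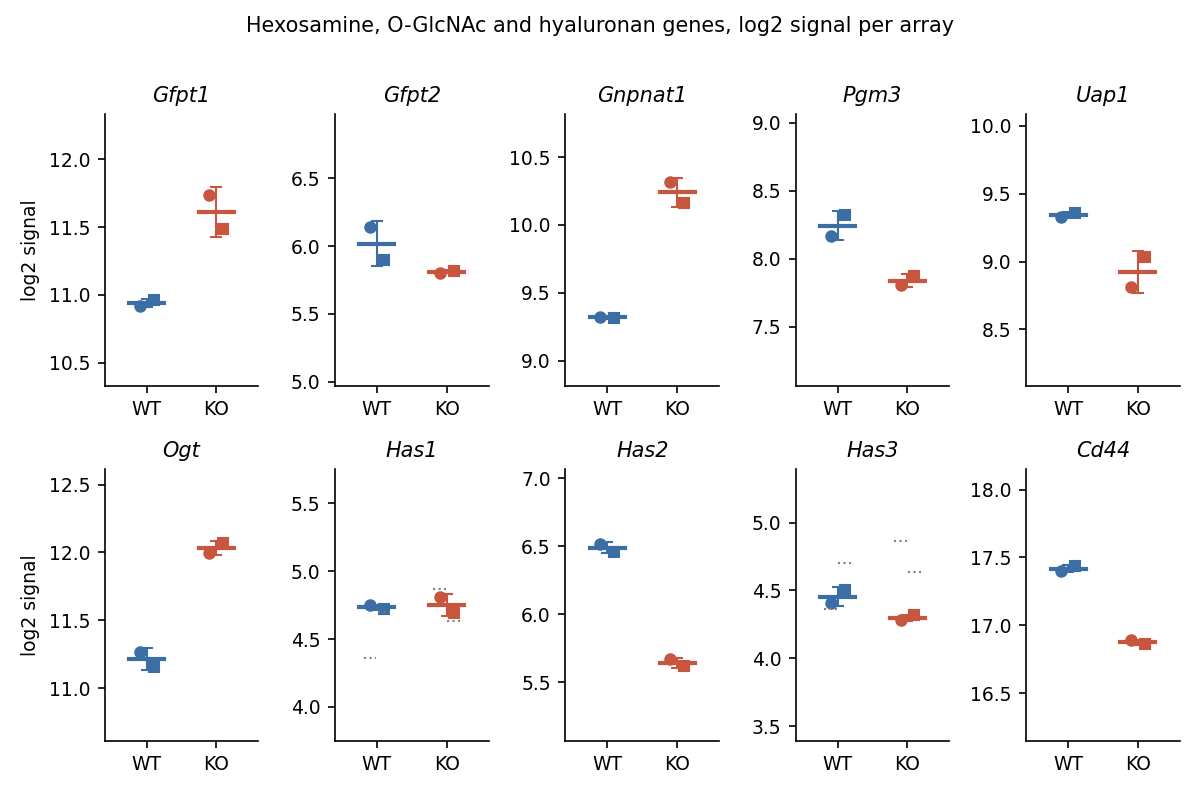
Log2 signal of the 10 genes on each array (circles, replicate 1; squares, replicate 2), with the mean (thick line) and SD (bar) of 2 arrays per genotype (WT, wild type; KO, Glut1-deficient). Short dotted lines mark the background floor of the array where it falls within the axis, and each panel has its own range of values. Gfpt1, Gnpnat1 and Ogt lie higher and Has2 and Cd44 lower in KO, while Has1 and Has3 lie near the floor.

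The windows before the transcription start are shown for Gfpt1 and Ogt, called higher, for Cd44, called lower, and for Amdhd2, a GlcNAc 6-phosphate deacetylase gene described further below, because they place the sequence beside the change. Each is the 250 bases before a RefSeq start of the gene, 5′ to 3′ on the gene's strand, from RefSeq on GRCm38.p6. Capitals mark matches, on either strand, to 5 motifs: CACGTG (the E-box bound by basic helix-loop-helix factors), CCACG, TGATGNAA (the core of amino acid response elements), TGANTCA (AP-1 sites) and GGGCGG (GC boxes). Of the 10 genes, 7 had a window in the table, and Gnpnat1, Has2 and Has3 did not.
Gfpt1, chr6:87042596-87042845, plus strand: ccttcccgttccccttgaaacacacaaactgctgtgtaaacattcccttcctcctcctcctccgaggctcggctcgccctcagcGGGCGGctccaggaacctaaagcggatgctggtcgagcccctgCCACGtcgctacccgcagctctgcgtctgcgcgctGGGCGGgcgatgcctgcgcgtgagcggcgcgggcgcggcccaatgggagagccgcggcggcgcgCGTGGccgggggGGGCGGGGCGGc
Ogt, chrX:101639801-101640050, plus strand: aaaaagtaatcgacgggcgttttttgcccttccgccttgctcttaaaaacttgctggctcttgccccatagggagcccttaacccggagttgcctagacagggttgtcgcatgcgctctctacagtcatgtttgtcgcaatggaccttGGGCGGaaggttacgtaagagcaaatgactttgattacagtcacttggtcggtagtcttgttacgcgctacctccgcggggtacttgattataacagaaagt
Cd44, chr2:102901666-102901915, minus strand: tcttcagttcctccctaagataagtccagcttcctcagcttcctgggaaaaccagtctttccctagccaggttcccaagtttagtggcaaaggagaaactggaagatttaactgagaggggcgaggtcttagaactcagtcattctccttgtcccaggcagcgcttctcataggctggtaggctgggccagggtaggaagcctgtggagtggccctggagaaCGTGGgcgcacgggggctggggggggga
Amdhd2, chr17:24163734-24163983, minus strand: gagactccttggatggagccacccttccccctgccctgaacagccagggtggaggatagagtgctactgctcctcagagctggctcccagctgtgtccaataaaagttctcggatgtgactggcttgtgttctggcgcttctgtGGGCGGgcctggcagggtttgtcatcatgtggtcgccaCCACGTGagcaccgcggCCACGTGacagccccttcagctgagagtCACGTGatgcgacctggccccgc

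The Gfpt1 window held CCACG 2 times, 123 and 24 bases before the start, and GGGCGG 4 times. CCACG was present in 28.3% and GGGCGG in 32.7% of 32851 windows of this length, and 8.47% of windows held 3 or more GGGCGG. The windows of Pgm3 and Uap1, which did not pass, each held GGGCGG 5 times, and that of Uap1 held CCACG 1 time. For Ogt the table gave 2 starts, of which the upstream one is shown, and each of the 2 windows held GGGCGG 1 time, and the Cd44 window held CCACG 1 time. The Amdhd2 window held CACGTG 3 times, 67, 50 and 23 bases before the start, and 2 of these overlapped a CCACG match. One or more copies of CACGTG were present in 6.02% of all windows, and 3 or more in 0.0609%, or 20 windows. Of other genes described further below, Adam10, called lower, and Gnptg, called higher, each had a window with CACGTG 1 time. TGATGNAA, present in 3.45% of windows, had no match in those of the 7 genes, and TGANTCA (6.75%) had a match in that of Gfpt2. These matches describe the letters and show no binding, and the Amdhd2 window was picked after its motifs had been seen.

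Gfpt1 encodes the rate-limiting entry enzyme, glutamine fructose-6-phosphate transaminase. It read 10.92 and 10.96 in wild-type cells and 11.74 and 11.48 in Glut1-deficient cells. Both Glut1-deficient arrays lay above both wild-type arrays, replicate 1 more so. The difference was 0.67 (SE 0.12, limma adjusted p = 0.0395). It ran from 0.54 without Glut1-deficient replicate 1 to 0.80 without replicate 2, and the call was lost whichever array was left out (adjusted p from 0.0505 to 0.167). Melanocyte markers were also highest in Glut1-deficient replicate 1, and their part in this was not tested.

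Gfpt2, the other entry enzyme gene, did not pass the test. It read 6.14 and 5.90 in wild-type cells and 5.80 and 5.82 in Glut1-deficient cells. Its difference was -0.21 with a 95% interval from -0.50 to 0.09 (limma adjusted p = 0.410), an interval that lies wholly below the estimate for Gfpt1.

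Gnpnat1, the acetyltransferase of the second step, had the largest rise of the 10. It read 9.33 and 9.31 in wild-type cells and 10.32 and 10.16 in Glut1-deficient cells, with no overlap. The difference was 0.92 (SE 0.10, limma adjusted p = 0.0147). Without Glut1-deficient replicate 2 the call held (adjusted p = 0.0390). It was lost without either wild-type array (0.0733 and 0.0674) and without Glut1-deficient replicate 1 (0.0675).

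The following enzymes lay on the other side of 0. Pgm3, the phosphoacetylglucosamine mutase, read 8.17 and 8.32 in wild-type cells and 7.81 and 7.87 in Glut1-deficient cells. Uap1, the UDP-GlcNAc pyrophosphorylase of the last step, read 9.33 and 9.36 in wild-type cells and 8.81 and 9.03 in Glut1-deficient cells. For each gene both Glut1-deficient arrays were below both wild-type arrays. Neither passed the test: the Pgm3 difference was -0.41 (95% interval -0.67 to -0.14, adjusted p = 0.0907) and that of Uap1 was -0.42 (-0.71 to -0.13, adjusted p = 0.104).

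Ogt encodes the only known transferase that puts single GlcNAc units on nuclear and cytoplasmic proteins. It read 11.27 and 11.16 in wild-type cells and 12.00 and 12.07 in Glut1-deficient cells. The SD of replicates was 0.08 and 0.05, against a difference of 0.82 between genotypes (SE 0.10, limma adjusted p = 0.0171). The call was lost whichever array was left out, with adjusted p from 0.0574 to 0.0836 and differences from 0.76 to 0.88. Oga, which encodes the enzyme that removes O-GlcNAc, read 11.62 and 11.65 in wild-type cells and 11.36 and 11.25 in Glut1-deficient cells. Its difference of -0.33 did not pass (adjusted p = 0.125). A dimmer row of Oga was at or below the floor on all arrays.

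Of the hyaluronan synthases, Has2 was the one with a called change. Its signal was 6.52 and 6.46 in wild-type cells and 5.67 and 5.62 in Glut1-deficient cells, with an SD of 0.04 in each genotype. It fell by 0.85 on the log2 scale (SE 0.09, limma adjusted p = 0.0146). The call held without Glut1-deficient replicate 2 (adjusted p = 0.0495). The adjusted p was 0.0826 when wild-type replicate 1 was left out, 0.0655 when replicate 2 of the wild type was and 0.0671 without Glut1-deficient replicate 1.

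Has1 and Has3 were close to background. Has1 read 4.75 and 4.72 in wild-type cells and 4.81 and 4.69 in Glut1-deficient cells, above the floor on 3 of 4 arrays. Has3 read 4.40 and 4.50 in wild-type cells and 4.28 and 4.32 in Glut1-deficient cells, above the floor on 1 of 4. For neither gene was a difference detectable at this signal (adjusted p = 0.958 and 0.462). The Has1 interval, -0.23 to 0.27, and the Has3 interval, -0.40 to 0.09, lay wholly above the Has2 estimate, but rows this close to background can hide a change.

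Cd44, which encodes the main hyaluronan receptor of keratinocytes, was bright on all arrays. It read 17.40 and 17.44 in wild-type cells and 16.89 and 16.86 in Glut1-deficient cells. The SD of replicates was 0.03 and 0.02, and Cd44 fell by 0.54 on the log2 scale (SE 0.09, limma adjusted p = 0.0341). The call was lost whichever array was left out (adjusted p from 0.0892 to 0.170), although the difference stayed between -0.56 and -0.52 in those fits. The keratinocyte marker Krt5, also bright, differed by -0.51 and Krt14 by -0.43, while Perp, of like brightness, differed by 0.52 and Trp63 by 0.18. Itgb4, Itga6, Cdh1, Krt10 and Krt1, the other keratinocyte markers, lay below 0, at -0.77, -0.33, -0.24, -0.14 and -0.12. None of the 9 passed (limma adjusted p = 0.0994, 0.122, 0.0848 and 0.476 for Krt5, Krt14, Perp and Trp63, and 0.0660 for Itgb4). Their summed log2 signal was 19.61 and 19.72 in wild-type cells and 19.49 and 19.26 in Glut1-deficient cells. After quantile normalization the Cd44 difference was -0.80, Krt5 and Krt14 passed at -0.61 and -0.70, and Perp differed by 0.23.

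**Figure D2:**
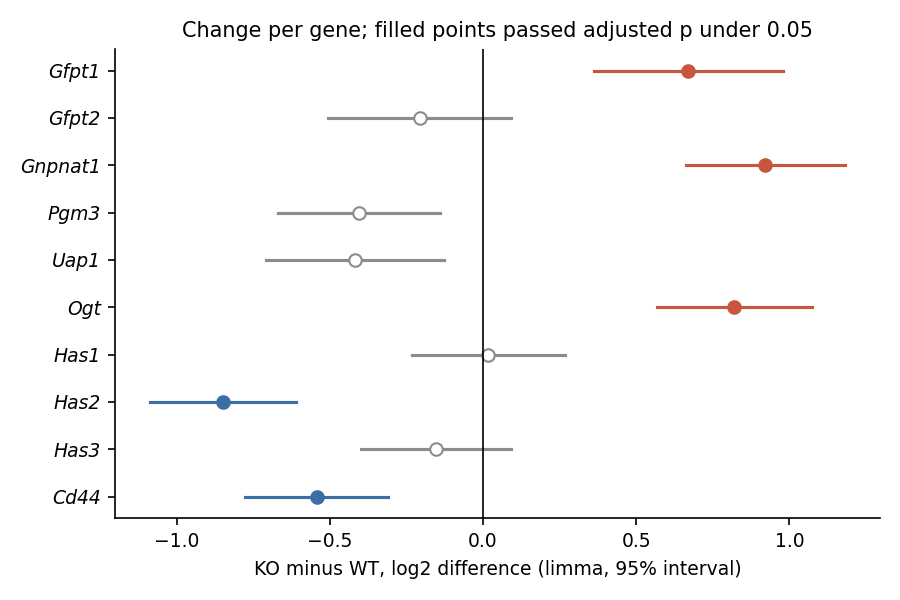
Difference of each gene, Glut1-deficient (KO) minus wild type (WT), on the log2 scale (horizontal axis), with the 95% interval of the limma fit to 2 arrays per genotype. Filled points passed an adjusted p under 0.05, red for higher and blue for lower in KO. The values run from -0.85 for Has2 to 0.92 for Gnpnat1, and the intervals of Gfpt2, Has1 and Has3 include 0.

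Of 15 listed genes that feed the pathway or recover and break down its sugars, 12 had a row with a single gene symbol. Of these, 6 rose, none fell and 6 did not pass (Hk1, Hk2, Pgm1, Pgm2, Gnpda2 and Galk2), so that 50% were called beside 7.22% of all rows. Their median difference was 0.62, beside -0.01 over all rows. When only rows above the floor in at least 2 arrays were tested, 6 of 12 passed, beside 3032 of 15638 rows. Uap1l1, a homologue of Uap1, had the largest change of the list. It read 6.18 and 6.24 in wild-type cells and 8.96 and 8.36 in Glut1-deficient cells, a rise of 2.45 (SE 0.21, limma adjusted p = 0.00785), or 5.45-fold. Like the melanocyte markers, Uap1l1 was highest in Glut1-deficient replicate 1, and their part in this was not tested.

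Gnpda1, the glucosamine-6-phosphate deaminase that runs against the entry step and returns fructose 6-phosphate, read 7.77 and 7.84 in wild-type cells. In Glut1-deficient cells it read 9.79 and 9.55, a rise of 1.87 (SE 0.12, adjusted p = 0.00508), or 3.65-fold. It too was highest in Glut1-deficient replicate 1, and a part of the melanocyte markers in this was not tested. Of the other called rises, Gnpnat1, Renbp, Amdhd2, Nagk, Slc1a5, Gnptg and Hexa were also higher in Glut1-deficient replicate 1 than in replicate 2. A part of the melanocyte markers was not tested there either. Ogt read higher in Glut1-deficient replicate 2. Gnpda2, the paralogue of Gnpda1, differed by 0.20 and did not pass (95% interval -0.10 to 0.51). Renbp, which encodes the GlcNAc 2-epimerase, read 4.85 and 4.84 in wild-type cells, just above the floor, and 6.50 and 6.40 in Glut1-deficient cells. It rose by 1.61 (SE 0.10, adjusted p = 0.00434). Uap1l1, Gnpda1 and Renbp passed in each of the 4 fits that left out 1 array (adjusted p from 0.0171 to 0.0331).

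The smaller rises of this group depended more on single arrays. Amdhd2, which deacetylates GlcNAc 6-phosphate, read 6.17 and 6.02 in wild-type cells and 7.00 and 6.85 in Glut1-deficient cells (difference 0.82, adjusted p = 0.0216). Nagk, the GlcNAc kinase of the salvage route, rose by 0.64 (adjusted p = 0.0416) and Slc1a5, a glutamine carrier, by 0.64 (adjusted p = 0.0280). All 3 calls were lost whichever array was left out (adjusted p from 0.0529 to 0.168). The hexokinase gene Hk2 read 8.81 and 8.51 in wild-type cells and 9.65 and 8.89 in Glut1-deficient cells and did not pass (adjusted p = 0.284).

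**Figure D3:**
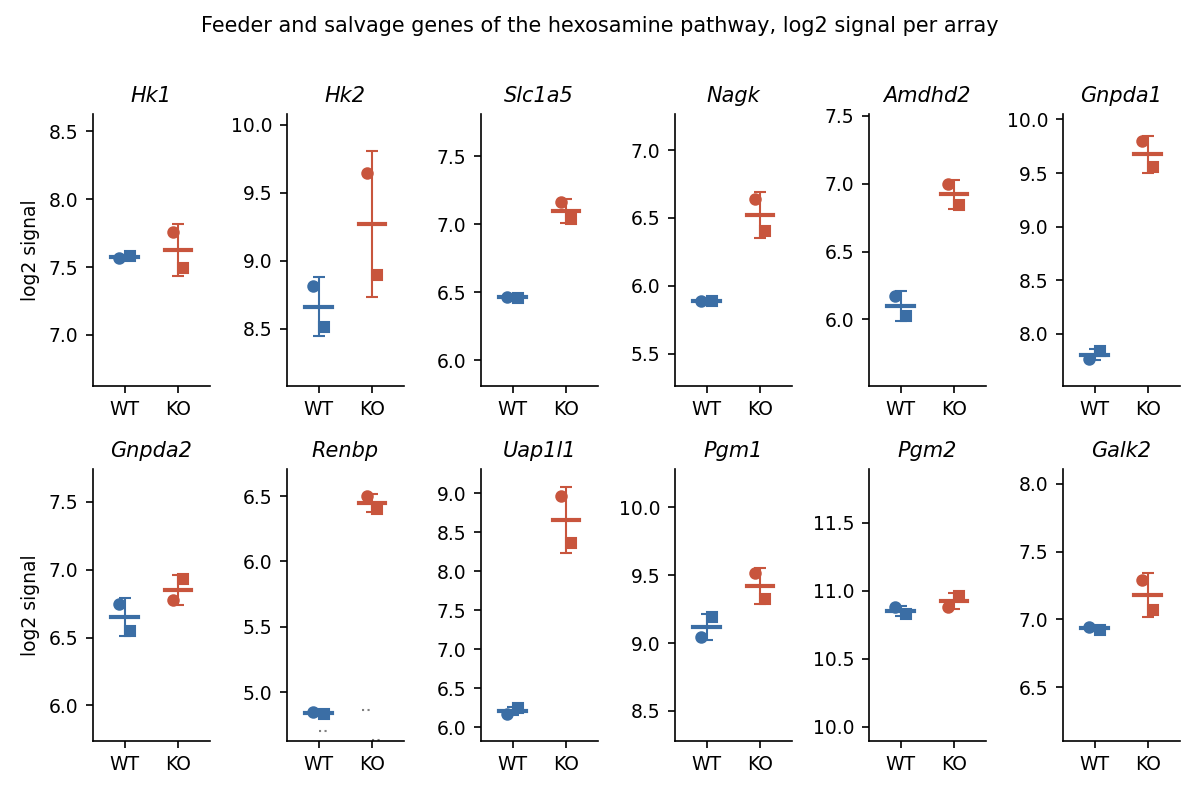
Log2 signal of the 12 measured feeder and salvage genes on each array (circles, replicate 1; squares, replicate 2), with mean and SD of 2 arrays per genotype and the background floor dotted where it falls within the axis. Uap1l1, Gnpda1 and Renbp show the widest gaps between wild type (WT) and Glut1-deficient (KO), and Hk1 overlaps between genotypes.

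Genes listed around the use of UDP-GlcNAc were mixed. Most draw on it or carry it into the secretory pathway. The list, called UDP-GlcNAc users below, also holds Oga, Hcfc1, Nans, Nanp and Cmas, which do neither. Of 25 listed, 24 were measured: 1 rose, 3 fell and 20 did not pass (16.7% called, beside 7.22% of all rows, 4.11% higher and 3.11% lower), with a median difference of -0.14. All 24 lay above the floor on both arrays of at least 1 genotype, which many of all rows did not. When only rows above the floor in at least 2 arrays were tested, 5 of 24 passed, beside 3032 of 15638 rows, shares of similar size. Ext1, a polymerase of heparan sulfate, read 12.02 and 11.84 in wild-type cells and 10.76 and 10.81 in Glut1-deficient cells and fell by 1.14 (SE 0.11, adjusted p = 0.0101). Mgat3, which adds the bisecting GlcNAc of N-glycans, fell by 0.89 (adjusted p = 0.0220), to 4.70 and 4.90, above the floor on 1 of 2 Glut1-deficient arrays. Alg14, a subunit of the transferase that adds GlcNAc to lipid-linked precursors, fell by 0.61 (adjusted p = 0.0389). Gnptg, the gamma subunit of the enzyme that marks lysosomal proteins, rose by 0.66 (adjusted p = 0.0348).

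Of these calls, those of Alg14 and Gnptg were lost whichever array was left out (adjusted p from 0.0781 to 0.191). That of Ext1 was lost without either replicate 1, wild-type (0.0515) or Glut1-deficient (0.0626). That of Mgat3 was lost without either wild-type array (0.101 and 0.0655) and without Glut1-deficient replicate 1 (0.0929). Gne, the entry enzyme of sialic acid synthesis, lay at 8.50 and 8.41 in wild-type cells and 8.96 and 8.92 in Glut1-deficient cells, with an adjusted p of 0.0501.

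Of 14 genes for hyaluronan precursors and breakdown 10 were measured: 1 rose, 1 fell and 8 did not pass (20% called, beside 7.22% of all rows), with a median difference of -0.02. With only rows above the floor in at least 2 arrays tested, 2 of 7 passed, beside 3032 of 15638 rows. Hexa, a subunit of the lysosomal hexosaminidase that trims GlcNAc from glycan ends, read 8.56 and 8.68 in wild-type cells and 12.21 and 11.14 in Glut1-deficient cells. It rose by 3.06 (SE 0.34, adjusted p = 0.0151), or 8.31-fold, and by 2.52 to 3.59 when 1 array was left out. The call was lost without wild-type replicate 1 (adjusted p = 0.0516). Like the melanocyte markers, Hexa was highest in Glut1-deficient replicate 1, and their part in this was not tested. Hyal2, a cell-surface hyaluronidase, read 9.96 and 9.85 in wild-type cells and 9.12 and 9.26 in Glut1-deficient cells and fell by 0.72 (SE 0.10, adjusted p = 0.0247), a call lost whichever array was left out (0.0570 to 0.128). Cemip2, another cell-surface hyaluronidase gene, differed by -0.41 and did not pass (adjusted p = 0.0887). Ugdh, which makes UDP-glucuronate, the other building block of the polymer, differed by -0.11 (95% interval -0.35 to 0.13, adjusted p = 0.612).

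Among genes whose products bind hyaluronan, or bind, splice or cleave CD44, 30 of 31 were measured. None rose, 4 fell and 26 did not pass (13.3% called, beside 7.22% of all rows and 3.11% lower), with a median difference of -0.01. Only 14 of the 30 lay above the floor on both arrays of a genotype. With only rows above the floor in at least 2 arrays tested, 4 of 14 passed, beside 3032 of 15638 rows. Mmp14, a membrane metalloproteinase that can shed CD44, read 14.62 and 14.44 in wild-type cells and 12.50 and 12.85 in Glut1-deficient cells and fell by 1.85 (SE 0.15, adjusted p = 0.00756). Its call held in all 4 fits that left out 1 array (adjusted p from 0.0210 to 0.0392). Hmmr, a hyaluronan-binding protein that also acts on the mitotic spindle, read 12.00 and 11.70 in wild-type cells and 10.06 and 10.71 in Glut1-deficient cells and fell by 1.46 (SE 0.24, adjusted p = 0.0314).

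Stab1, a scavenger receptor gene related to the hyaluronan receptor gene Stab2, read 5.96 and 5.80 in wild-type cells and 4.82 and 4.80 in Glut1-deficient cells. It fell by 1.07 (adjusted p = 0.0108) and was above the floor on 1 of 2 Glut1-deficient arrays. Adam10, a CD44-shedding protease gene, fell by 0.51 (adjusted p = 0.0381). The Adam10 call was lost whichever array was left out (0.0962 to 0.185) and with a mean-variance trend in the fit. That of Hmmr was lost without either wild-type array (0.112 and 0.0693) and without Glut1-deficient replicate 1 (0.0837), and that of Stab1 without either replicate 1, wild-type (0.0559) or Glut1-deficient (0.0617). Msn, Ezr and Rdx, which link CD44 to actin, differed by -0.15, -0.23 and -0.41 and did not pass. Esrp1, a splicing regulator of Cd44, differed by 0.39 and did not pass (adjusted p = 0.138). Whether Cd44 isoforms differed was not analysed here, since Cd44 has 1 summary row.

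**Figure D4:**
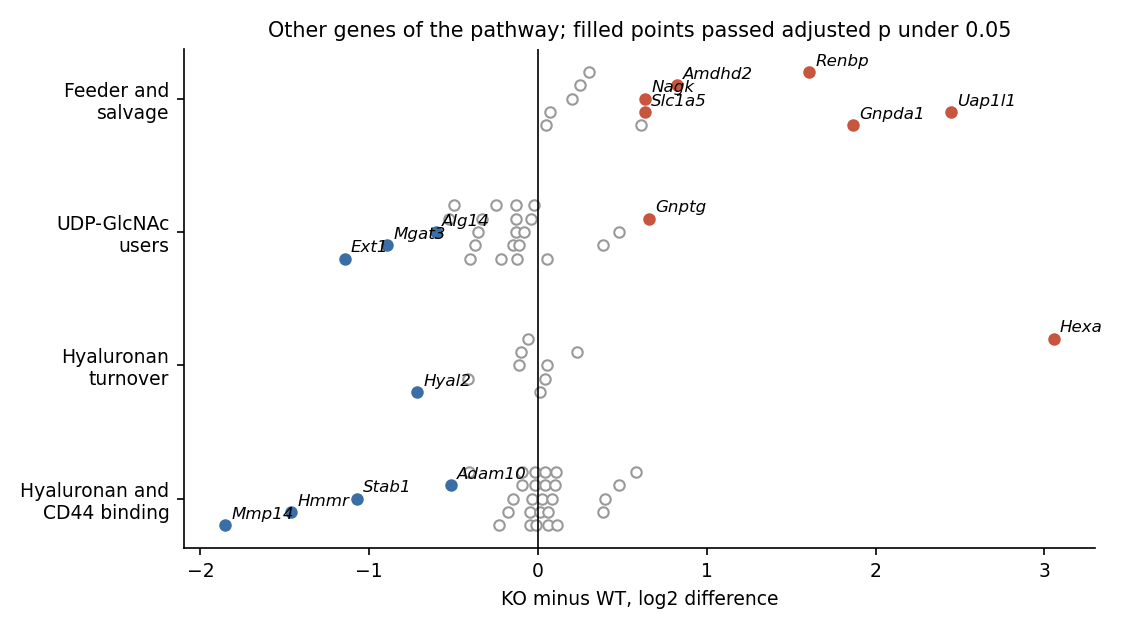
Difference of each measured gene of the 4 further lists, Glut1-deficient (KO) minus wild type (WT), on the log2 scale (horizontal axis, 1 point per gene, spread vertically for legibility). Filled, named points passed an adjusted p under 0.05. All 6 called feeder and salvage genes lie above 0, and all 4 called genes of the binding list lie below it.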

How the data were processed

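The authors deposited 1 table of log2 gene-level signals for 4 arrays, named SST-RMA values per the labels. The submitters' processing notes name Affymetrix Expression Console and RMA, with no version, annotation or filter stated. RMA equalises the distributions of the arrays, which can remove a shift common to most genes, and the transform in SST-RMA can change the size of folds. The deposited gene-level values were not fully equalised, since quantile normalization still changed the differences of Cd44, Krt14 and Perp, as given above. A platform table gave a single gene symbol to 30604 of 72688 rows, and Entrez identifiers matched to RefSeq updated 827 symbols. Rows were compared with limma 3.58.1 (lmFit, eBayes, two-sided, Benjamini-Hochberg over 30604 rows) in R 4.3.3. The brightest row by mean over 4 arrays stood for a gene.

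The members and the 4 lists of other pathway genes were chosen with earlier results of these data known. Named are the 10 members, every called gene of a list, or else the 3 with the smallest p, Slc2a1 and the 3 brightest markers of each cell type, except markers at or below the floor in both genotypes, which are mostly given as counts. Other genes of the lists are named to show what did not pass. The fit was tested on simulated arrays. Alternatives covered normalization, rows tested, variance moderation, a replicate block and each array left out. With 1 array left in a genotype, its spread is assumed to equal that of the other genotype.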

Additional observations from a re-analysis of the deposited data

How the results depend on the processing

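All 5 called members and all 16 called list genes kept their direction in the fits that left out 1 array. This was fixed in advance, since the genotypes did not overlap in any of these genes. The alternatives that changed only the rows tested, the variance moderation or the replicate block left each difference as it was, so no direction could turn there. Over all 12 alternatives, the 39 genes of the naming rule, markers included, gave 464 values, of which 361 kept direction and side of the threshold, 92 lost and 10 gained a call (6 of these in Tyrp1 and Dct, the others in Pdgfrb, Krt5 and Krt14), and 1 turned sign: Has1 was -0.040 without Glut1-deficient replicate 1, in a range up to 0.075 without replicate 2. Genes not called at first count as kept when they stayed uncalled, so the kept values do not measure how steady the calls were. With every row of the table tested, 60 of the 30604 named rows passed, and 0 members and 0 genes of each of the 4 lists. The unadjusted limma p in this fit was under 0.05 for 5420 of the 30604 rows and 7 of 10 members. In the feeder, user, turnover and binding lists it was so for 6 of 12, 10 of 24, 3 of 10 and 7 of 30 genes. With 1 array left out, 314 to 1214 rows, 0 to 2 members, 3 feeder and salvage genes, 0 to 2 UDP-GlcNAc users, 0 to 1 hyaluronan turnover genes and 1 to 3 binding genes passed. The replicate numbers are tied to no shared animal. With the replicate block 1849 rows, 3 members (Gnpnat1, Ogt and Has2) and 2 UDP-GlcNAc users passed, and the deviations of the arrays numbered 1 correlated at -0.23. No member had another row to stand for it. Quantile normalization and median centring moved the median over all rows from -0.01 to -0.01 and -0.02. Some bright genes moved more under quantile normalization: Cd44 from -0.54 to -0.80, Krt14 from -0.43 to -0.70 and Perp from 0.52 to 0.23. Ogt moved the other way, from 0.82 to 0.84. Rows near the floor, as for Has1 and Has3, limit what could be seen.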

Other observations

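Ratios between genes of consecutive, opposing or homologous enzymes, picked after their values had been seen and so given with no test, compare changes within each array and not levels of different genes. The log2 signal of Ogt minus that of Oga was -0.35 and -0.50 in wild-type cells and 0.64 and 0.82 in Glut1-deficient cells, a shift of 1.15. The signal of Gnpnat1 minus that of Pgm3 was 1.16 and 0.99 in wild-type cells and 2.51 and 2.29 in Glut1-deficient cells, a shift of 1.33. The signal of Gnpda1 minus that of Gfpt1, whose enzymes run in opposite directions, was -3.15 and -3.12 in wild-type cells and -1.94 and -1.93 in Glut1-deficient cells, a shift of 1.20. The signal of Uap1l1 minus that of Uap1 was -3.15 and -3.11 in wild-type cells and 0.15 and -0.68 in Glut1-deficient cells, a shift of 2.87.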
